A study of Mus musculus with 6 samples.

Results

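The genes described here are 38 genes of the NRF2, glutathione and antioxidant systems, named as a list and looked up by current or older symbol in the array's annotation. Each was represented by the probe set assigned to that gene alone with the highest mean over the 6 arrays, leaving out IDs that end in _x_at where another existed. This gave values for 34 of the 38, among 18194 genes measured in all. Prdx1 was covered only by 5 probe sets that the annotation shares with the predicted gene Gm21399, and for Prdx5, Prdx6 and G6pdx the annotation used here named no probe set, so these 4 genes were not analysed here. The values are log2 expression values from Affymetrix mouse M430 2.0 arrays, made by the authors with RMA, so a difference of 1 is a 2-fold difference in signal.

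Cells of all groups were immortalized mouse embryonic fibroblasts of mixed background strain that lack the demethylase gene Kdm5a (KDM5A-/-), kept in serum-containing medium and collected below confluence. They carried KDM5A-H483A, a form with a histidine of the catalytic domain replaced by alanine, or re-introduced wild-type KDM5A, or an empty vector, each on 2 of the 6 arrays. Both arrays of a group are named biological replicates in the labels, with the numbers 1 and 2 (first and second array here). How their cultures were separated is not stated, so a p-value covers only the spread between these samples, which may be technical. The sources used here give neither the number of embryos or clones behind the cells nor the promoter that drove the re-introduced genes.

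NRF2, encoded by Nfe2l2, is a transcription factor that KEAP1 holds in the cytoplasm and hands to a ubiquitin ligase for degradation. Oxidants and electrophiles modify cysteines of KEAP1, NRF2 then accumulates, pairs with small MAF proteins and binds antioxidant response elements near genes of glutathione synthesis, thioredoxin recycling, quinone reduction, haem breakdown, iron storage and NADPH supply. In fibroblasts these genes help set the capacity to remove peroxides and reactive electrophiles. NRF2 activity is controlled largely through protein stability, which an expression array does not measure.

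Kdm5a, the deleted and re-introduced gene, was read first. None of its 6 single-gene probe sets had all 4 KDM5A arrays above both empty vector arrays. The probe set of highest mean stood at 6.11 and 5.89 in KDM5A-H483A arrays, 5.96 and 5.83 in wild-type arrays and 5.89 and 5.83 in empty vector arrays. The files do not say whether these probe sets lie in the deleted or the re-introduced sequence, so the arrays do not check the group labels. Array medians over all probe sets lay between 4.55 and 4.60. Of the 18 fibroblast markers examined, 0 lay below the median of all values (4.58) in both arrays of a group, with mean levels of 10.1 and 9.17 in the first and second KDM5A-H483A arrays, 10.3 and 9.17 in the wild-type arrays, and 10.0 and 9.76 in the empty vector arrays. Mean levels of markers of epithelial, endothelial, pluripotent and other unrelated cell types lay between 3.56 and 5.35 in every array. The fibroblast markers separated the first from the second array in both KDM5A groups. In these bulk samples, fewer cells of a type and less RNA per cell cannot be told apart.

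Of the 34 genes, 0 passed the limma threshold of an adjusted p of 0.05 in any of the 3 comparisons, where 0% of all genes did so as well. At an unadjusted p under 0.05, limma gave 1 member for wild-type KDM5A against empty vector (2.52% of all genes), 1 for KDM5A-H483A against empty vector (1.65%) and 2 for KDM5A-H483A against wild-type KDM5A (3.81%). The members' 95% confidence intervals reached a median of 0.49 to either side of the log2 fold change, against 0.37 for all genes. These arrays therefore leave room for differences of that size in most members, and a p above the threshold does not show that a gene was level.

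Nfe2l2 and Keap1, the sensor pair, varied little between arrays. Nfe2l2 read 9.13 and 8.93 in KDM5A-H483A arrays, 9.21 and 9.11 in wild-type arrays and 8.97 and 8.96 in empty vector arrays. Both wild-type arrays of Nfe2l2 lay above both empty vector arrays, with a log2 fold change of 0.19 (standard error 0.13, 95% interval -0.12 to 0.50, unadjusted p = 0.178 and adjusted p = 1 by limma). A second Nfe2l2 probe set stayed dim, between 2.77 and 3.18, with log2 fold changes of -0.20 for KDM5A-H483A and -0.23 for wild-type KDM5A over empty vector, opposite in direction to the brighter one. Keap1 read 8.40 and 8.31 in KDM5A-H483A arrays, 8.35 and 8.18 in wild-type arrays and 8.43 and 8.17 in empty vector arrays. All groups of Keap1 overlapped, and its log2 fold change was -0.036 (95% interval -0.38 to 0.31) for wild-type KDM5A and 0.058 (95% interval -0.29 to 0.41) for KDM5A-H483A, each against empty vector. The first array of Keap1 was above the second in every group, in its other probe set too, where the values were 5.55 and 5.12, 5.15 and 4.79 and 5.17 and 4.92 across the groups as listed.

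Nqo1 and Hmox1, classical NRF2 targets, had their highest group means with wild-type KDM5A and their lowest with empty vector. Nqo1 encodes a quinone reductase. Nqo1 read 6.62 and 7.18 in KDM5A-H483A arrays, 6.75 and 7.46 in wild-type arrays and 6.21 and 6.67 in empty vector arrays. Its wild-type arrays both lay above the empty vector arrays, while the first KDM5A-H483A array lay just below the second empty vector array. The level of Nqo1 with wild-type KDM5A was 1.58-fold that with empty vector, a log2 fold change of 0.66 (standard error 0.30, 95% interval -0.07 to 1.40, unadjusted p = 0.0691 and adjusted p = 1 by limma), and for KDM5A-H483A the log2 fold change was 0.46 (standard error 0.30, 95% interval -0.27 to 1.19, unadjusted p = 0.178 and adjusted p = 0.999 by limma). Leaving out 1 wild-type array moved the value of Nqo1 for that form to 1.01 (without the first) or 0.31 (without the second), and leaving out 1 KDM5A-H483A array gave 0.74 or 0.18 for the mutant form. Without the first or the second empty vector array the values were 0.23 or 0.69 for KDM5A-H483A and 0.44 or 0.89 for wild-type KDM5A.

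Hmox1 encodes haem oxygenase 1, which degrades haem to biliverdin, carbon monoxide and iron. Hmox1 read 7.27 and 8.62 in KDM5A-H483A arrays, 7.73 and 8.83 in wild-type arrays and 6.84 and 7.78 in empty vector arrays. The groups overlapped, and the first array was the lower one in each of them, by about 1 log2 unit. Hmox1 had the largest log2 fold change of the members in both comparisons against empty vector, 0.97 (standard error 0.56, 95% interval -0.39 to 2.33, unadjusted p = 0.133 and adjusted p = 1 by limma) for wild-type KDM5A and 0.63 (standard error 0.56, 95% interval -0.73 to 1.99, unadjusted p = 0.303 and adjusted p = 0.999 by limma) for KDM5A-H483A. Its interval was also the widest of the members. With the replicate number as a block, a pairing that the labels do not state, the intervals of Hmox1 were 0.61 to 1.33 and 0.27 to 0.99. That fit gave Nqo1 intervals of 0.34 to 0.98 for wild-type KDM5A and 0.14 to 0.78 for KDM5A-H483A. Adjusted p-values by limma in it were 0.998 and 0.996 for both genes. Without the first KDM5A-H483A array the log2 fold change of Hmox1 for that form was 1.31, and without the second it was -0.044. For wild-type KDM5A it was 1.52 without the first and 0.42 without the second wild-type array. Without the first or the second empty vector array it was 0.16 or 1.10 for KDM5A-H483A and 0.50 or 1.44 for wild-type KDM5A. Each gene had 1 probe set assigned to it alone, so neither pattern could be compared with another probe set.

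**Figure D1:**
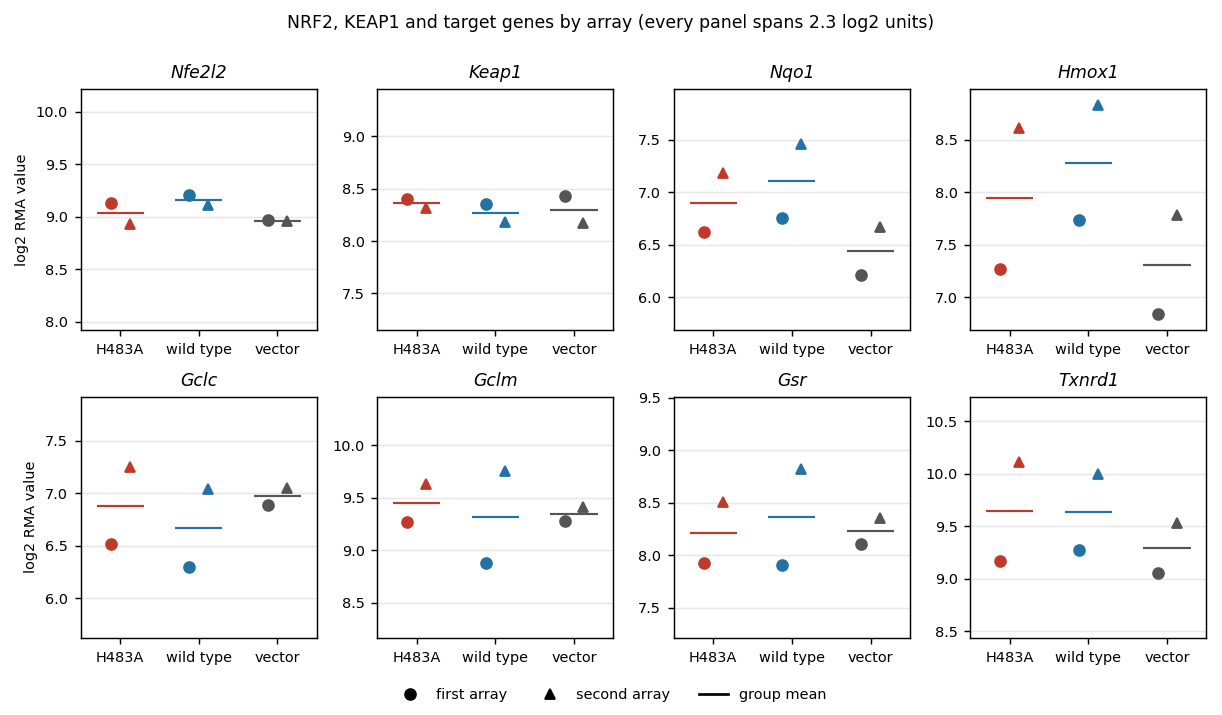
Log2 RMA values (vertical axis) of Nfe2l2, Keap1 and 6 target genes in the 2 arrays of each group, with KDM5A-H483A on the left, wild-type KDM5A in the middle and empty vector on the right. Circles are first arrays, triangles second arrays and lines group means. Triangles lie above circles in all 3 groups for the 6 target genes shown (Nqo1, Hmox1, Gclc, Gclm, Gsr and Txnrd1), and Nfe2l2 stays between 8.93 and 9.21. Slc7a11, which is not shown, had its second array above the first only with KDM5A-H483A.

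NRF2 binds antioxidant response elements, so the promoter windows of the members were read. RefSeq windows of 250 bases before to 50 after a start site (build GRCm38.p6) were at hand for 29 of the 34 members, in 39 windows. The core of the element was searched as TGACNNNGC on both strands, and it can overlap the AP-1 motif TGANTCA. It was found in 9 of the 39 member windows (23.1%), where 12.4% of all 32851 windows held it, and AP-1 motifs in 3 (7.69%, where 7.81% of all windows held one). Among the 11 genes whose second array was above the first in every group, Nqo1 and Hmox1 among them, 8 had a window and 5 of these held a core match in at least 1 window. Counted by gene, 9 of the 29 members with a window (31.0%) held a match, as did 3781 of all 27025 genes with a window. The 11 genes were picked for their array values and some have several windows, so nothing is read from the 5 of 8. A match describes the letters and is not a binding site by itself. The windows of 4 of these genes are shown to place the matches, with the core match in capitals (written as its reverse complement where it lies on the opposite strand). The Gclm window spans chr3:122245307-122245606 on the plus strand, with the match beginning at base -134 from the start site. For Txnrd1 it is chr10:82858956-82859255 on the plus strand, with the match at -92. For Srxn1 it is chr2:152105274-152105573 on the plus strand, with the match at 28, after the start. The Me1 window spans chr9:86695865-86696164 on the minus strand, and its match at -6 overlaps an AP-1 motif.
Gclm: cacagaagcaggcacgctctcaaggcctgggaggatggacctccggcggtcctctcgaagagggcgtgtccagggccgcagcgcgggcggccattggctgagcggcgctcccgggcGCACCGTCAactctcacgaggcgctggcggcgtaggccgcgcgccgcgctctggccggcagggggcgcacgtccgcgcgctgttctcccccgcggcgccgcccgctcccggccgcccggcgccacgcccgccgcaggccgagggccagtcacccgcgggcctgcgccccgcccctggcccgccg
Txnrd1: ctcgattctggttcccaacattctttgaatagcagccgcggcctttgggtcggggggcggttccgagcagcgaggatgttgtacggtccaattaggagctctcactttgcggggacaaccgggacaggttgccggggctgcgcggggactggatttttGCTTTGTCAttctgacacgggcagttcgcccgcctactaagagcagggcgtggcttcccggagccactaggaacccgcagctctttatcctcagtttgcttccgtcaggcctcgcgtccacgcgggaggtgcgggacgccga
Srxn1: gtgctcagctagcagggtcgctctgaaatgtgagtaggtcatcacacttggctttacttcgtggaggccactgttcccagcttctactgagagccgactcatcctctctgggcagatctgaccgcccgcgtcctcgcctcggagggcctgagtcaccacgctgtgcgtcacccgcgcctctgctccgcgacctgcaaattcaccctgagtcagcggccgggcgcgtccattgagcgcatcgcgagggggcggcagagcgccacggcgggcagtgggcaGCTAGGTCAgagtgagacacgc
Me1: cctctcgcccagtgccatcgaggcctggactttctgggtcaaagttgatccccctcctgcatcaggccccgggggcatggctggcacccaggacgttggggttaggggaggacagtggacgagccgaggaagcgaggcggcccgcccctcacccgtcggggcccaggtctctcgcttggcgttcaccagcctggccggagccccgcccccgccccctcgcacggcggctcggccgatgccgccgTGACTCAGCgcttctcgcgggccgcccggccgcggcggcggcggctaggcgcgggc
Pgd was the remaining gene of the 5 with a match. Outside the 11 genes, Nfe2l2, Gsta3, Sod1 and Mgst1 held a match as well. Of these, Nfe2l2, Gsta3 and Mgst1 had the first array above the second in every group, so matches were found with either direction. No match in a window of this length says only that these letters are not in it, and Nqo1 and Chac2 were among the genes without one.

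Fth1, the heavy chain of ferritin, which stores iron in an oxidised form, had the smallest p of the members for KDM5A-H483A against empty vector. Fth1 read 10.94 and 11.49 in KDM5A-H483A arrays, 10.86 and 10.82 in wild-type arrays and 10.71 and 10.49 in empty vector arrays. Both KDM5A-H483A arrays lay above every other array, and both wild-type arrays above both empty vector arrays. The level with KDM5A-H483A was 1.53-fold that with empty vector, a log2 fold change of 0.62 (standard error 0.20, 95% interval 0.13 to 1.10, unadjusted p = 0.0207 and adjusted p = 0.999 by limma). A second Fth1 probe set stood at 10.84 and 11.38, 10.81 and 10.73 and 10.68 and 10.52 across the groups as listed, with log2 fold changes of 0.51 for KDM5A-H483A and 0.17 for wild-type KDM5A. Ferritin heavy chain was 0.37 (95% interval -0.11 to 0.86) in KDM5A-H483A over wild-type KDM5A on the log2 scale. Without the first and without the second KDM5A-H483A array the log2 fold change of Fth1 against empty vector was 0.89 and 0.34, and against wild-type KDM5A 0.65 and 0.097.

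The 6 genes of glutathione supply had log2 fold changes on both sides of 0 in every comparison. Chac2, which encodes an enzyme that cleaves glutathione, had arrays of the same group within 0.085 of each other. Chac2 read 4.81 and 4.85 in KDM5A-H483A arrays, 5.36 and 5.40 in wild-type arrays and 5.02 and 5.10 in empty vector arrays. The 3 groups did not overlap, and wild-type KDM5A was the highest, empty vector the middle and KDM5A-H483A the lowest. Log2 fold changes of Chac2 were -0.55 (standard error 0.12, 95% interval -0.83 to -0.27, unadjusted p = 0.00262 and adjusted p = 0.928 by limma) for KDM5A-H483A against wild-type KDM5A, 0.32 (standard error 0.12, 95% interval 0.042 to 0.60, unadjusted p = 0.0303 and adjusted p = 1 by limma) for wild-type KDM5A against empty vector and -0.23 (95% interval -0.51 to 0.049) for KDM5A-H483A against empty vector. It was the member with the smallest p in the first 2 of these. Over all genes, both KDM5A-H483A arrays lay below both wild-type arrays for 16.1%. Chac2 has 1 probe set of its own, whose values lay between 4.81 and 5.40, not far above the median of all values.

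Gss, the glutathione synthetase gene, stood higher in the second KDM5A-H483A array than anywhere else. Gss read 6.002 and 6.61 in KDM5A-H483A arrays, 5.86 and 5.93 in wild-type arrays and 5.96 and 5.93 in empty vector arrays. Its log2 fold change was 0.36 (95% interval -0.14 to 0.86) for KDM5A-H483A against empty vector and 0.41 (95% interval -0.082 to 0.91) against wild-type KDM5A. A second Gss probe set, which ends in _x_at, had 0.076 and 0.085 in these comparisons, so the difference was smaller there. In the probe set used here, the values were 0.67 and 0.72 without the first KDM5A-H483A array and 0.054 and 0.11 without the second.

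Gclc and Gclm encode the catalytic and modifier subunits of glutamate-cysteine ligase, the enzyme that limits glutathione synthesis. Gclc read 6.52 and 7.25 in KDM5A-H483A arrays, 6.30 and 7.04 in wild-type arrays and 6.89 and 7.05 in empty vector arrays. Gclm read 9.27 and 9.63 in KDM5A-H483A arrays, 8.88 and 9.75 in wild-type arrays and 9.28 and 9.41 in empty vector arrays. The groups overlapped for both subunits, and the second array exceeded the first in each group. Log2 fold changes for wild-type KDM5A against empty vector were -0.30 (95% interval -1.06 to 0.46) for Gclc and -0.027 (95% interval -0.73 to 0.67) for Gclm, and for KDM5A-H483A -0.087 (95% interval -0.85 to 0.67) and 0.11 (95% interval -0.59 to 0.81). Another Gclm probe set had 0.36 and -0.061 in these comparisons, and another Gclc probe set 0.067 and 0.024, of the opposite direction in both for each gene. Gsr, glutathione reductase, which regenerates reduced glutathione with NADPH, had the same layout. Gsr read 7.92 and 8.51 in KDM5A-H483A arrays, 7.90 and 8.82 in wild-type arrays and 8.11 and 8.36 in empty vector arrays. Its fold change over empty vector was 0.13 (95% interval -0.67 to 0.93) for wild-type KDM5A and -0.018 (95% interval -0.82 to 0.78) for KDM5A-H483A on the log2 scale. The other Gsr probe set was opposite in both, at -0.33 and 0.28. Slc7a11, the cystine transporter subunit that brings in the cysteine for glutathione, stayed below the median of all values in every array, between 3.998 and 4.43, and may not lie above background. Both KDM5A-H483A arrays of Slc7a11 lay below both wild-type arrays, at 3.998 and 4.31 against 4.43 and 4.37, a log2 fold change of -0.25 (95% interval -0.61 to 0.12). The empty vector arrays of Slc7a11 read 4.40 and 4.22.

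Glutathione transferases, which attach glutathione to electrophiles, had intervals that include 0 in all comparisons, the widest for Mgst1. With wild-type KDM5A 5 of the 6 had a log2 fold change above 0 against empty vector, between -0.27 for Gsta3 and 0.50 for Mgst1, and with KDM5A-H483A likewise 5 of 6, between -0.25 for Gsta3 and 0.31 for Mgst1. The value of Mgst1 for wild-type KDM5A (95% interval -0.58 to 1.57) came after those of Hmox1, Nqo1 and Gpx4 in size. A dimmer Mgst1 probe set, below the median of all values in every array, pointed the opposite way in both comparisons. It had -0.19 with the wild-type form and -0.28 with the mutant form. The brighter one fell below that median in every second array, at 4.12 (mutant), 4.30 (wild-type) and 4.03 (empty vector). Such low values may not lie above background. Gstm1 read 6.34 and 6.29 in KDM5A-H483A arrays, 6.74 and 6.16 in wild-type arrays and 6.10 and 6.28 in empty vector arrays. Gstm2 read 5.66 and 5.34 in KDM5A-H483A arrays, 5.90 and 5.51 in wild-type arrays and 5.34 and 5.50 in empty vector arrays. Both genes were highest in the first wild-type array, and Gstm2 had both wild-type arrays above both empty vector arrays. Members of the Gstm family are close in sequence, and the files do not say how far the probe sets tell them apart. Gstp1 lay between 10.13 and 10.52 and Gsta4 between 6.01 and 6.49 over the 6 arrays. Gsta3 lay between 2.59 and 3.13, below the median of all values in every array, and may not lie above background.

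The thioredoxin genes reduce protein disulfides and the peroxiredoxins. Txn1 read 10.95 and 11.82 in KDM5A-H483A arrays, 11.02 and 11.39 in wild-type arrays and 11.11 and 11.11 in empty vector arrays. Txnrd1 read 9.17 and 10.11 in KDM5A-H483A arrays, 9.27 and 10.002 in wild-type arrays and 9.06 and 9.53 in empty vector arrays. In the probe sets used here, signals of Txn1, the thioredoxin gene, and Txnrd1, the gene of its reductase, were both highest in the second KDM5A-H483A array, followed by the second wild-type array. The other probe sets of both genes were also highest in that KDM5A-H483A array, but the second wild-type array did not come next. The other Txn1 probe set had a log2 fold change of -0.24 for wild-type KDM5A against empty vector, where the brightest had 0.091. Log2 fold changes of Txnrd1 against empty vector were 0.34 (95% interval -0.56 to 1.25) for wild-type KDM5A and 0.35 (95% interval -0.56 to 1.25) for KDM5A-H483A. The other Txnrd1 probe sets, both dimmer, had -0.068 and -0.079 for wild-type KDM5A, opposite in direction to the brightest one. For KDM5A-H483A they had 0.24 and 0.17. In the brighter of them, the second-minus-first differences were 0.30, 0.13 and -0.011 for KDM5A-H483A, wild-type KDM5A and empty vector. These were smaller than in the brightest Txnrd1 probe set. Srxn1 encodes sulfiredoxin, which repairs over-oxidised peroxiredoxins. Its brightest probe set read 6.40 and 6.44 in KDM5A-H483A arrays, 6.29 and 6.57 in wild-type arrays and 6.44 and 6.46 in empty vector arrays. Log2 fold changes against empty vector were -0.017 (95% interval -0.35 to 0.31) for wild-type KDM5A and -0.027 (95% interval -0.36 to 0.30) for KDM5A-H483A. A dimmer Srxn1 probe set stood at 5.30 and 6.62, 4.997 and 5.45 and 5.41 and 4.97 in KDM5A-H483A, wild-type KDM5A and empty vector arrays, with a log2 fold change of 0.77 for KDM5A-H483A against empty vector, so the probe sets of this gene disagreed.

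All 7 genes of peroxide-removing enzymes had a log2 fold change above 0 for wild-type KDM5A against empty vector, between 0.095 and 0.51, where 51.3% of all genes were above 0. Nqo1, Hmox1 and Fth1 were above 0 too, while 3 of 6 glutathione supply genes and 1 of 3 superoxide dismutases were. For 5 of the 7 peroxide-removing enzymes both wild-type arrays lay above both empty vector arrays in the probe sets used here, a layout found for 16.5% of all genes. Gpx4, the glutathione peroxidase that reduces lipid peroxides in membranes, had the largest of these differences. Gpx4 read 9.02 and 9.47 in KDM5A-H483A arrays, 9.66 and 9.23 in wild-type arrays and 8.82 and 9.05 in empty vector arrays. Its log2 fold change was 0.51 (standard error 0.22, 95% interval -0.0094 to 1.04, unadjusted p = 0.0531 and adjusted p = 1 by limma) for wild-type KDM5A and 0.31 (95% interval -0.21 to 0.83) for KDM5A-H483A against empty vector. A brighter Gpx4 probe set, which ends in _x_at, had 0.31 and 0.067 in these comparisons. There the second wild-type array (9.98) lay below the second empty vector array (10.01), so these groups overlapped. Gpx1 read 11.18 and 10.87 in KDM5A-H483A arrays, 11.38 and 11.03 in wild-type arrays and 10.91 and 10.89 in empty vector arrays. Gpx1, the cytosolic glutathione peroxidase, had log2 fold changes of 0.31 (95% interval -0.11 to 0.72) and 0.12 (95% interval -0.29 to 0.54) in the same order. Without the first wild-type array, in which both genes were highest, the values for wild-type KDM5A were 0.30 for Gpx4 and 0.13 for Gpx1 in the probe sets used here.

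Catalase and Gpx3, the secreted glutathione peroxidase, had their lowest values in KDM5A-H483A arrays in the probe sets used here, and neither passed the adjusted threshold. Cat read 9.37 and 9.06 in KDM5A-H483A arrays, 9.56 and 9.63 in wild-type arrays and 9.39 and 9.54 in empty vector arrays. Both KDM5A-H483A arrays of Cat lay below every other array, and its log2 fold change was -0.38 (standard error 0.15, 95% interval -0.74 to -0.022, unadjusted p = 0.0406 and adjusted p = 0.928 by limma) against wild-type KDM5A and -0.25 (95% interval -0.61 to 0.11) against empty vector. Another Cat probe set did not show this, with values of 6.98 and 7.33, 7.02 and 7.43 and 6.95 and 6.99 in the order KDM5A-H483A, wild-type KDM5A and empty vector and log2 fold changes of -0.07 and 0.19. With the mean of both probe sets the log2 fold change of Cat was -0.23 against wild-type KDM5A and -0.031 against empty vector. With the first or the second KDM5A-H483A array left out, the value of the first probe set against empty vector was -0.40 and -0.098, and against wild-type KDM5A -0.53 and -0.23. Gpx3 read 5.35 and 5.27 in KDM5A-H483A arrays, 5.53 and 5.65 in wild-type arrays and 5.48 and 5.39 in empty vector arrays. The KDM5A-H483A arrays of Gpx3 were likewise the lowest, with log2 fold changes of -0.28 (95% interval -0.57 to 0.017) and -0.12 (95% interval -0.41 to 0.17). Of the peroxiredoxins, which reduce peroxides with thioredoxin, Prdx2 lay between 9.50 and 10.07, Prdx3 between 8.28 and 8.99 and Prdx4 between 10.21 and 10.42 over the 6 arrays. Their log2 fold changes against empty vector were 0.21, 0.12 and 0.10 for wild-type KDM5A and 0.27, -0.18 and 0.072 for KDM5A-H483A.

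Superoxide dismutases convert superoxide to hydrogen peroxide in the cytosol (Sod1), the mitochondria (Sod2) and outside the cell (Sod3). Sod2 read 7.55 and 8.33 in KDM5A-H483A arrays, 7.31 and 7.73 in wild-type arrays and 7.63 and 7.48 in empty vector arrays. Sod2 reached its highest value in the second KDM5A-H483A array and overlapped between groups, with a log2 fold change of 0.39 (95% interval -0.27 to 1.05) for KDM5A-H483A against empty vector and 0.42 (95% interval -0.24 to 1.08) against wild-type KDM5A. Sod1 lay between 9.26 and 9.88 and was also highest in that array. Another Sod2 probe set was highest there too, at 8.26, while dimmer ones were highest in wild-type arrays, at 7.02 and 5.26. In the probe sets used here, Sod3 was the one dismutase gene in which the first array exceeded the second in every group. It read 5.22 and 4.66 in KDM5A-H483A arrays, 4.87 and 4.65 in wild-type arrays and 5.37 and 4.57 in empty vector arrays. The other Sod3 probe set did not show this, with second minus first of -0.056, -0.051 and 0.17 in the same order.

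Pgd, Taldo1 and Tkt, enzymes of the pentose phosphate pathway, and Me1, cytosolic malic enzyme, supply NADPH or the carbon flow behind it. Taldo1 read 7.46 and 8.20 in KDM5A-H483A arrays, 7.48 and 7.45 in wild-type arrays and 7.48 and 7.29 in empty vector arrays. Pgd read 7.32 and 8.10 in KDM5A-H483A arrays, 7.44 and 7.76 in wild-type arrays and 7.25 and 7.36 in empty vector arrays. Tkt and Me1 were, like these genes, highest in the second KDM5A-H483A array, at 8.97 and 10.60, and lay between 8.43 and 8.97 and between 9.87 and 10.60 over all arrays. All 4 genes had a log2 fold change above 0 for KDM5A-H483A against empty vector, 0.44 (95% interval -0.14 to 1.03) for Taldo1, 0.40 (95% interval -0.23 to 1.04) for Pgd, 0.24 for Tkt and 0.18 for Me1. Over all genes 50.2% were above 0 in that comparison. The KDM5A-H483A arrays of these 4 genes overlapped with those of the other groups. Without the second KDM5A-H483A array the values were 0.074 for Taldo1 and 0.015 for Pgd, against 0.81 and 0.79 without the first.

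**Figure D2:**
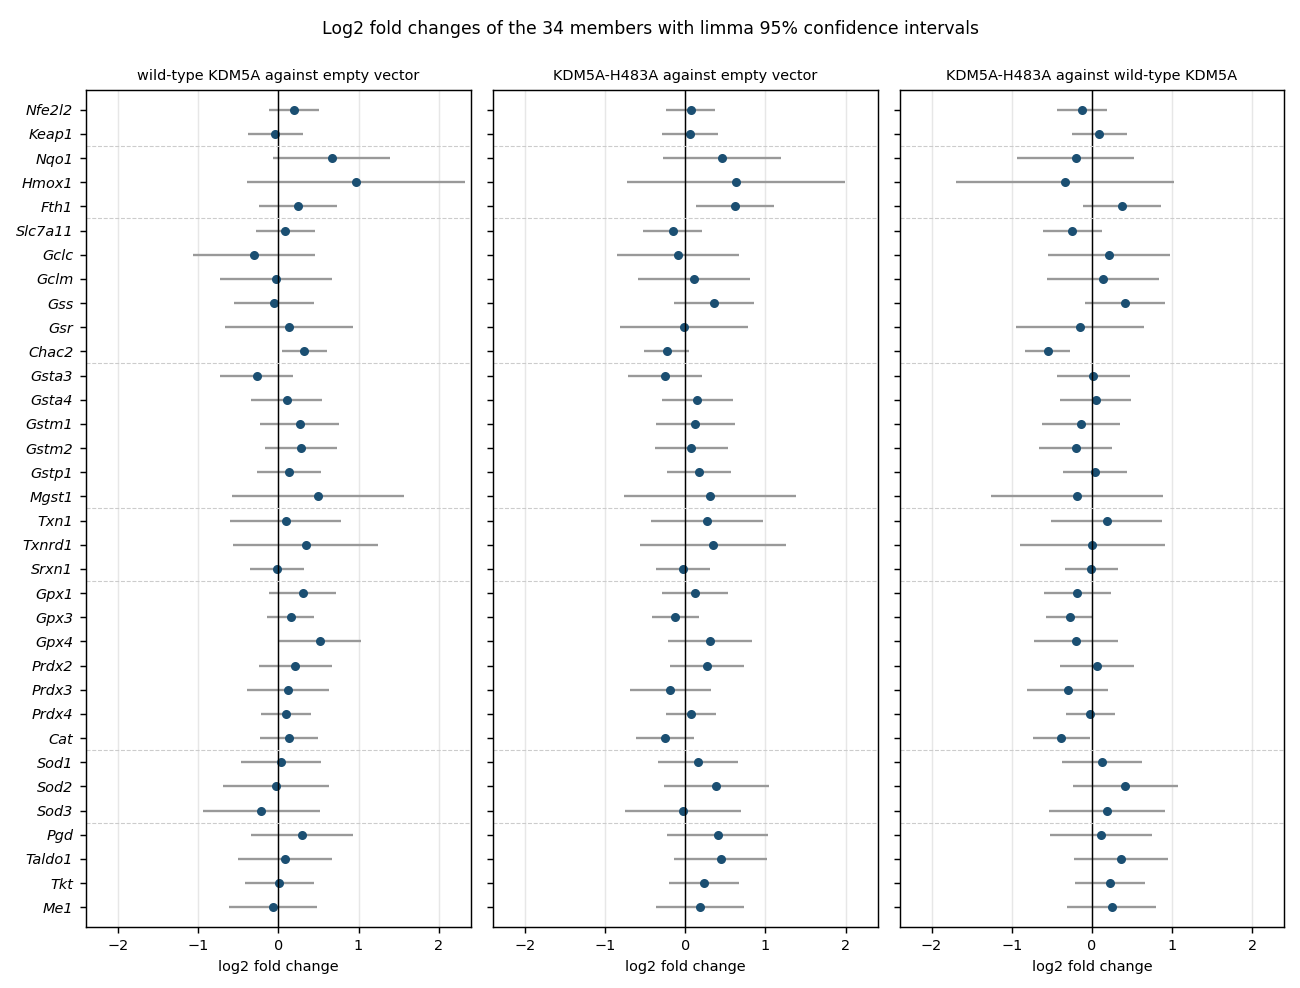
Log2 fold changes (points, horizontal axis) of the 34 genes with limma 95% confidence intervals (lines) in 3 panels, each form of KDM5A against empty vector (wild-type left, KDM5A-H483A in the middle) and the mutant form against the wild-type form (right). Dashed lines separate the roles. Intervals that leave out 0 are those of Chac2 in the left and right panels, Fth1 in the middle panel and Cat in the right panel, and none of these genes passed the adjusted threshold.

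For the set as a whole, the median log2 fold change was 0.13 for wild-type KDM5A against empty vector, with 25 of 34 members above 0, where the median of all genes was 0.0049 and 51.3% were above 0. It was 0.14 for KDM5A-H483A against empty vector, with 24 of 34 above 0, where the median of all genes was 0.00099 and 50.2% were above 0. These comparisons share the empty vector arrays and are not independent of each other. The 18 fibroblast markers had a median of -0.35 for KDM5A-H483A and -0.20 for wild-type KDM5A in these comparisons, with 6 of 18 above 0 in each, and their part in the members' values was not tested. Without the first and without the second KDM5A-H483A array the members' median for the mutant form was 0.28 and 0.0036. Between the 2 forms of KDM5A it was 0.011, with 18 of 34 above 0, where the median of all genes was -0.0069 and 48.4% were above 0. Without the second KDM5A-H483A array 7 of 34 members were above 0, and the share of all genes was not counted there.

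Counts of genes whose arrays did not overlap were read against the same counts over all genes. For wild-type KDM5A against empty vector both arrays lay above for 11 members and below for 2, where this held for 16.5% and 15.4% of all genes. The 11 were Nfe2l2, Nqo1, Chac2, Gstm2, Gpx1, Gpx3, Gpx4, Prdx2, Cat, Pgd and Fth1, and the 2 were Gss, by a margin smaller than the digits printed for it, and Gsta3. For KDM5A-H483A against empty vector, 4 members lay above (Gss, Gstm1, Gstp1 and Fth1) and 3 below (Chac2, Gpx3 and Cat), where all genes gave 13.6% and 14.6%. Against wild-type KDM5A, 2 members of the KDM5A-H483A group lay above (Gss and Fth1) and 4 below (Chac2, Gpx3, Slc7a11 and Cat), against 14.9% and 16.1% of all genes. The share of members was larger than that of all genes on the higher side of wild-type KDM5A over empty vector, 32.4%, and no larger than it elsewhere.

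**Figure D3:**
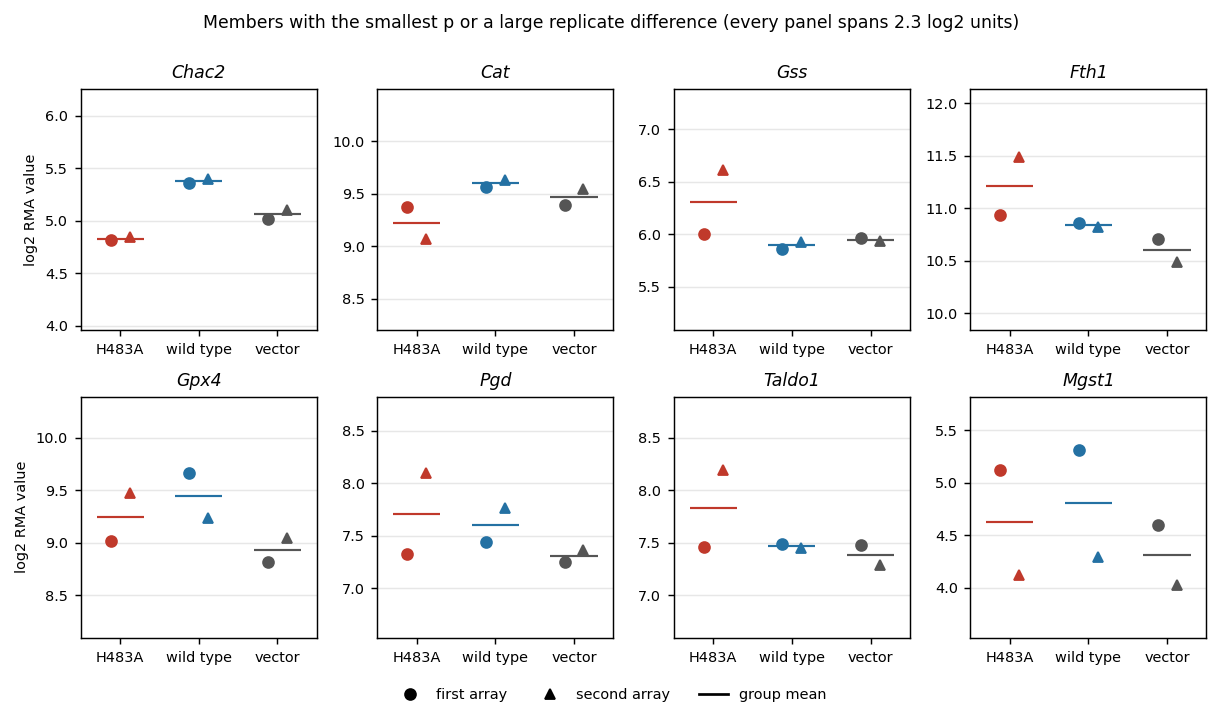
Log2 RMA values (vertical axis) of 8 further members in the 2 arrays of each group, with KDM5A-H483A on the left, wild-type KDM5A in the middle and empty vector on the right. Circles are first arrays, triangles second arrays and lines group means. The groups of Chac2 are apart from each other, while Pgd, Taldo1 and Gss are highest in the second KDM5A-H483A array.

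The 2 arrays of a group differed in these genes by a median of 0.51 with KDM5A-H483A, 0.30 with wild-type KDM5A and 0.15 with empty vector, regardless of sign, where all genes gave 0.19, 0.18 and 0.13. The second array was above the first in all 3 groups for 11 of the 34 members (32.4%, against 15.6% of all genes), namely Nqo1, Hmox1, Gclc, Gclm, Gsr, Chac2, Txnrd1, Srxn1, Prdx3, Pgd and Me1. The reverse held for 6 members (17.6%, against 17.3% of all genes), Nfe2l2, Keap1, Gsta3, Gpx1, Sod3 and Mgst1. Second minus first, Hmox1 differed by 1.35 with KDM5A-H483A, 1.10 with wild-type KDM5A and 0.94 with empty vector. Nqo1 differed by 0.57 with KDM5A-H483A, 0.70 with wild-type KDM5A and 0.46 with empty vector. For Txnrd1 the difference was 0.94 with KDM5A-H483A, 0.73 with wild-type KDM5A and 0.48 with empty vector. In the empty vector cells 16 of 34 members (47.1%, against 49.6% of all genes) were higher in the second array. Replicate numbers carry no order, and the labels do not say that arrays of the same number share a day or a batch.

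Differences of over 0.5 in favour of the second array were found for 14 members with KDM5A-H483A (41.2%, against 8.08% of all genes), 7 with wild-type KDM5A (20.6%, against 4.52%) and 1 with empty vector (2.94%, against 1.60%). Differences of over 0.5 in favour of the first array were found for 3 members with KDM5A-H483A (8.82%, against 6.79% of all genes), 2 with wild-type KDM5A (5.88%, against 6.63%) and 2 with empty vector (5.88%, against 2.19%). The median member was higher in the second array by 0.41 with KDM5A-H483A and 0.053 with wild-type KDM5A, and the median was -0.0015 with empty vector. Of the members, 13 reached their highest value of all 6 arrays in the second KDM5A-H483A array (38.2%, where this array was the highest for 23.2% of all genes). They were Fth1, Gclc, Gss, Gsta4, Me1, Pgd, Prdx2, Sod1, Sod2, Taldo1, Tkt, Txn1 and Txnrd1. The second empty vector array was the highest for 0 members, against 12.2% of all genes.

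Mgst1, a microsomal transferase that protects membranes, ran the other way. Mgst1 read 5.13 and 4.12 in KDM5A-H483A arrays, 5.31 and 4.30 in wild-type arrays and 4.60 and 4.03 in empty vector arrays. Its first array was about 1 log2 unit above the second in both KDM5A groups and 0.57 above it with empty vector, while a dimmer probe set stayed between 3.77 and 4.30 and did not show this. Of the 11 genes with the second array higher in every group, 7 had other probe sets, and for 2 of the 7 all of these gave the same direction in every group. One was Gclm, where second minus first was 0.54, 1.60 and 0.82 for KDM5A-H483A, wild-type KDM5A and empty vector. The other was Gclc, with 0.24, 0.70 and 0.41. The other Gsr probe set gave 0.51, 0.45 and -0.35, so its direction was the opposite with empty vector. Me1 had 0.85, 0.54 and -0.12 in its other probe set, and Pgd 0.93, 0.11 and -0.16 in one of its others. In Srxn1 a dimmer probe set gave 1.32, 0.46 and -0.44 and another 0.47, -0.20 and 0.10. For Gsr, Me1, Pgd, Srxn1 and Txnrd1, at least 1 probe set therefore did not have the second array higher in all groups. Fibroblast markers moved with the same arrays, with a median marker higher in the first than in the second array by 0.93 with KDM5A-H483A, 0.78 with wild-type KDM5A and 0.20 with empty vector. Their part in the differences between arrays was not tested.

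**Figure D4:**
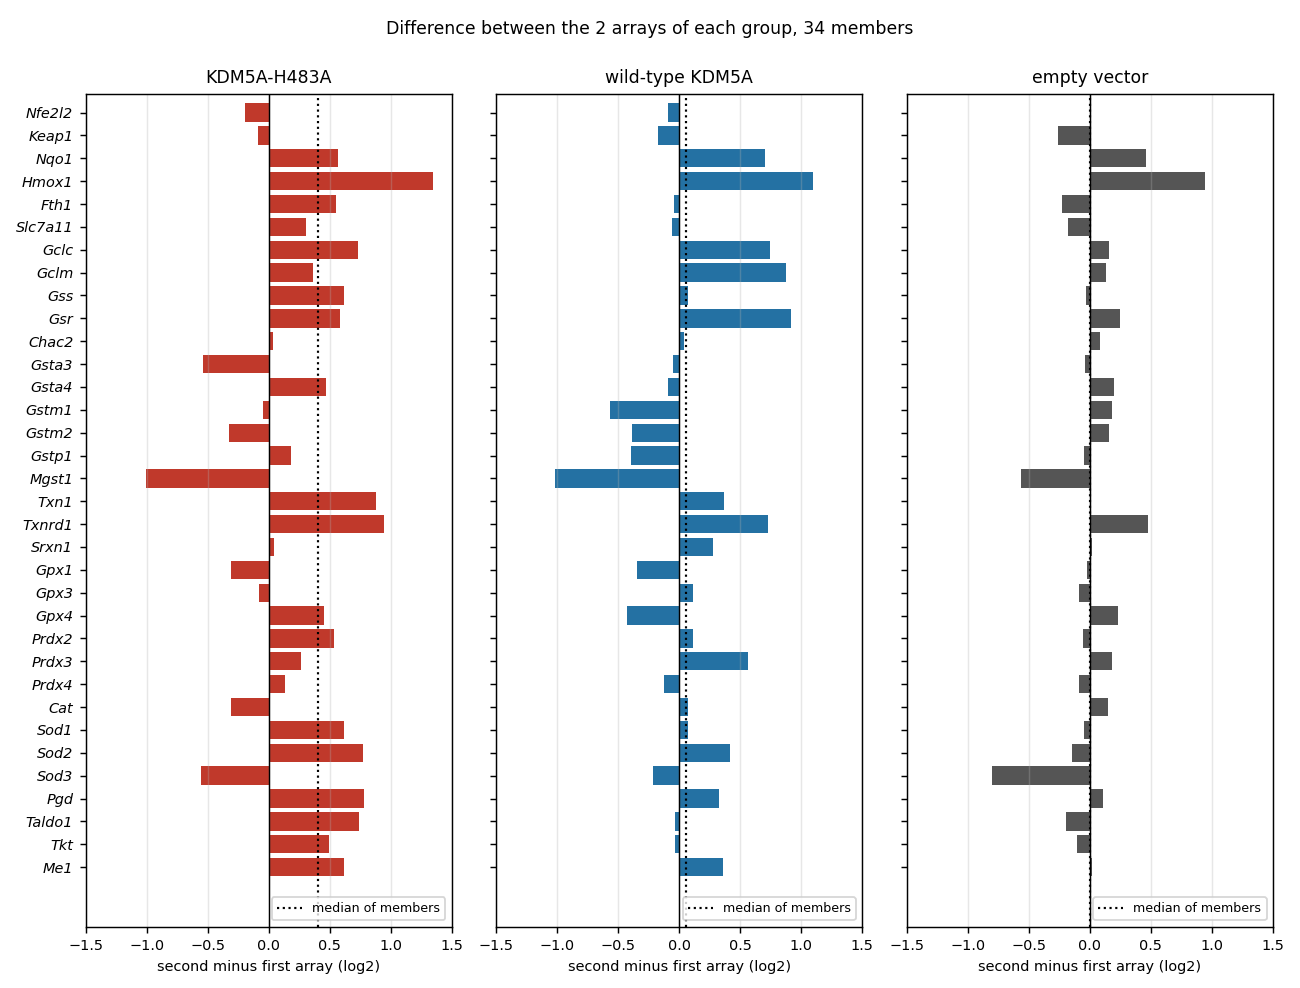
Second minus first array (bars, log2 units, horizontal axis) for the 34 genes in KDM5A-H483A, wild-type KDM5A and empty vector cells, with the median of the genes as a dotted line. Bars to the right are most frequent with KDM5A-H483A, where 24 of 34 point that way, against 18 with wild-type KDM5A and 16 with empty vector, and Hmox1 and Mgst1 point in opposite directions in every group.

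Regulators and partners of NRF2 outside the set were read next, with 0 of 15 past the limma threshold in any comparison. Their median log2 fold change was 0.096 for KDM5A-H483A and 0.017 for wild-type KDM5A against empty vector. At an unadjusted p under 0.05 there were 2 between the forms (3.81% of all genes) and 0 in the comparisons with empty vector, both lower with KDM5A-H483A than with wild-type KDM5A. One was Bach1, a repressor that competes with NRF2 at antioxidant response elements and holds down Hmox1. It stood at 8.55 and 8.40 in KDM5A-H483A arrays, 8.81 and 9.02 in wild-type arrays and 8.66 and 8.86 in empty vector arrays, and the log2 fold change between the forms was -0.44 (95% interval -0.79 to -0.085). The other was Palb2, a DNA repair gene whose protein can bind KEAP1, with -0.42 (95% interval -0.77 to -0.068). Mafg, a small MAF partner, had 0.42 (95% interval -0.0095 to 0.85) for KDM5A-H483A against empty vector, where Rbx1, a subunit of the ligase that degrades NRF2, had -0.33 (95% interval -0.66 to 0.0045). Gsk3b, a kinase that marks NRF2 for degradation, had 0.27 (95% interval -0.035 to 0.58) for wild-type KDM5A against empty vector.

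Over further NRF2 targets the median log2 fold change against empty vector was 0.15 for wild-type KDM5A, with 18 of 26 above 0. For KDM5A-H483A it was 0.12, with 21 of 26 above 0. All genes had medians of 0.0049 and 0.00099, with 51.3% and 50.2% above 0. In each group, 9 of the 26 lay below the median of all values in both arrays and may not lie above background. None of the 26 passed the limma threshold in these comparisons or between the forms, and at an unadjusted p under 0.05 there were 0 for KDM5A-H483A (1.65% of all genes) and 2 for wild-type KDM5A (2.52% of all genes). The 2 were Slc48a1, a haem transporter, with 0.54 (95% interval 0.11 to 0.98), and Ugdh, which makes UDP-glucuronate, with 0.44 (95% interval 0.017 to 0.86). Slc48a1 stood at 7.93 and 8.11 in KDM5A-H483A arrays, 8.08 and 8.45 in wild-type arrays and 7.58 and 7.87 in empty vector arrays. Akr1b8, an aldo-keto reductase, and Aldh3a2, a fatty aldehyde dehydrogenase, had 0.31 (95% interval -0.10 to 0.72) and 0.23 (95% interval -0.08 to 0.54) for KDM5A-H483A. Ptgr1, a reductase of lipid aldehydes, had 0.51 (95% interval 0.014 to 1.00) for KDM5A-H483A against wild-type KDM5A, the 1 gene of this list at an unadjusted p under 0.05 there (3.81% of all genes).

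Other glutathione genes had medians of 0.082 for KDM5A-H483A and 0.016 for wild-type KDM5A against empty vector. In limma 0 of 34 passed the threshold in any comparison, and at an unadjusted p under 0.05 there was 1, Mgst3 for wild-type KDM5A against empty vector (2.52% of all genes). Mgst3, a microsomal glutathione transferase, stood at 7.64 and 7.59 in KDM5A-H483A arrays, 7.81 and 7.84 in wild-type arrays and 7.21 and 7.45 in empty vector arrays. Both KDM5A groups of Mgst3 lay above empty vector, with log2 fold changes of 0.50 (95% interval 0.18 to 0.82) for wild-type KDM5A and 0.28 (95% interval -0.036 to 0.60) for KDM5A-H483A. Cth, which makes cysteine from cystathionine, lay below empty vector in both, at -0.33 (95% interval -0.87 to 0.21) and -0.49 (95% interval -1.03 to 0.055). Glrx2, a mitochondrial glutaredoxin, and Gpx2, a glutathione peroxidase, had 0.54 and 0.35 for KDM5A-H483A against wild-type KDM5A.

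Of 28 other thioredoxin, methionine sulfoxide and superoxide genes, a list that also held metallothioneins and enzymes of NADPH supply, 0 passed the threshold and 4 had an unadjusted p under 0.05 for wild-type KDM5A against empty vector, all on the higher side, as had 2 for KDM5A-H483A against empty vector and 0 between the forms. Over all genes these shares were 2.52%, 1.65% and 3.81%. The median of the list was 0.11 for KDM5A-H483A and 0.10 for wild-type KDM5A. Mt1 and Mt2 encode metallothioneins, cysteine-rich proteins that bind zinc and copper. Mt1 stood at 8.44 and 8.92 in KDM5A-H483A arrays, 8.69 and 8.66 in wild-type arrays and 7.89 and 8.22 in empty vector arrays, and Mt2 at 7.93 and 8.11 in KDM5A-H483A arrays, 7.94 and 7.95 in wild-type arrays and 7.29 and 7.72 in empty vector arrays. All 4 KDM5A arrays of Mt1 and of Mt2 lay above both empty vector arrays, with log2 fold changes of 0.63 (95% interval 0.15 to 1.10) for Mt1 and 0.52 (95% interval 0.10 to 0.94) for Mt2 with KDM5A-H483A, and 0.62 (95% interval 0.14 to 1.09) for Mt1 with wild-type KDM5A. Oxr1, an oxidation resistance gene, had 0.52 (95% interval 0.17 to 0.87) for wild-type KDM5A against empty vector and -0.34 (95% interval -0.69 to 0.0067) for KDM5A-H483A against wild-type KDM5A. Nxn, nucleoredoxin, had 0.41 in the second of these.

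Iron and ferroptosis genes had 0 of 17 past the limma threshold, and at an unadjusted p under 0.05 there was 1 for wild-type KDM5A against empty vector and 3 between the forms, all 3 lower with KDM5A-H483A than with wild-type KDM5A, where all genes gave 2.52% and 3.81%. Ncoa4, the receptor that delivers ferritin to lysosomes, stood at 8.93 and 8.79 in KDM5A-H483A arrays, 9.20 and 9.34 in wild-type arrays and 8.70 and 8.93 in empty vector arrays. Both wild-type arrays lay above all other arrays, with log2 fold changes of 0.46 (95% interval 0.12 to 0.80) for wild-type KDM5A against empty vector and -0.41 (95% interval -0.75 to -0.07) for KDM5A-H483A against wild-type KDM5A. Ireb2, which encodes an iron regulatory protein that represses ferritin translation, stood at 7.87 and 7.48 in KDM5A-H483A arrays, 8.21 and 8.18 in wild-type arrays and 7.97 and 8.09 in empty vector arrays. It was lowest in both KDM5A-H483A arrays, with -0.52 (95% interval -0.91 to -0.13) against wild-type KDM5A and -0.35 (95% interval -0.74 to 0.036) against empty vector. Slc11a2, an iron importer, had 0.30 for wild-type KDM5A, and Aifm2, a ferroptosis suppressor, 0.24 for KDM5A-H483A.

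Of the NADPH oxidase genes, whose products make superoxide or hydrogen peroxide, 8 were measured and 0 passed the limma threshold, with 1 for KDM5A-H483A and 2 for wild-type KDM5A against empty vector, and 2 between the forms, at an unadjusted p under 0.05, where all genes gave 1.65%, 2.52% and 3.81%. Nox4, the oxidase subunit of fibroblasts, stood at 5.9997 and 5.64 in KDM5A-H483A arrays, 6.20 and 6.59 in wild-type arrays and 6.21 and 6.44 in empty vector arrays. The KDM5A-H483A arrays of Nox4 were the lowest, with a log2 fold change of -0.57 (95% interval -1.04 to -0.10) against wild-type KDM5A and -0.51 (95% interval -0.98 to -0.033) against empty vector. Cyba, the membrane partner of these oxidases, had 0.38 (95% interval 0.00011 to 0.75) for wild-type KDM5A against empty vector. Duox1 and Cybb stood below the median of all values in every array named here and may not lie above background, with -0.34 for Duox1 with wild-type KDM5A and -0.17 for Cybb with KDM5A-H483A.

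ATF4 targets of the amino acid response, which share Slc7a11 with NRF2, had medians of -0.0012 for KDM5A-H483A and 0.045 for wild-type KDM5A against empty vector. In this list 0 of 27 genes passed the threshold, and 0 had an unadjusted p under 0.05. Nupr1, a stress-induced nuclear protein, had 0.69 (95% interval -0.34 to 1.72) for KDM5A-H483A, and Aldh18a1, of proline synthesis, 0.41 (95% interval -0.20 to 1.01) for wild-type KDM5A, both against empty vector. The groups overlapped for both genes. Nupr1 stood at 7.43 and 8.67 in KDM5A-H483A arrays against 7.76 and 6.96 in empty vector arrays. Aldh18a1 stood at 8.12 and 7.31 in wild-type arrays against 7.32 and 7.30 in empty vector arrays. Slc7a5, an amino acid transporter, and Asns, asparagine synthetase, had -0.28 (95% interval -0.58 to 0.02) and -0.24 (95% interval -0.54 to 0.054) for KDM5A-H483A against wild-type KDM5A.

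Selenoproteins include Gpx1, Gpx4 and Txnrd1, and the list of other selenoproteins and of their synthesis had 0 of 20 genes past the limma threshold. At an unadjusted p under 0.05 there were 0 for KDM5A-H483A and 2 for wild-type KDM5A over empty vector, and 1 between the forms, where all genes gave 1.65%, 2.52% and 3.81%. The list had a median of 0.052 for KDM5A-H483A and 0.056 for wild-type KDM5A, each against empty vector. Msrb1, a methionine sulfoxide reductase, had 0.34 (95% interval 0.019 to 0.66) and Selenos, of the endoplasmic reticulum, -0.48 (95% interval -0.93 to -0.037) for wild-type KDM5A. Secisbp2, which is needed to read UGA as selenocysteine, had 0.36 (95% interval 0.0074 to 0.71) for KDM5A-H483A against wild-type KDM5A and 0.27 (95% interval -0.074 to 0.62) against empty vector. Sephs2, which makes the selenium donor, had -0.50 (95% interval -1.17 to 0.17) for KDM5A-H483A against empty vector, with overlapping arrays.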

How the data were processed

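RNA of the 6 samples was hybridised to Affymetrix mouse M430 2.0 arrays. The submitters' processing notes name RMA (background subtraction, quantile normalization and probe summary) for the log2 values the authors deposited, and the sources used here give no version. Quantile normalization hides a change in total RNA per cell, and RMA compresses differences of dim genes. Arrays give no molecule counts, and their number limits the precision.

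Of 45101 probe sets, 34958 were annotated with 1 gene, 932 with several and 9211 with none. Symbols were updated through Entrez IDs (34754 matched). The probe set with the highest mean stood for each of 18194 genes.

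Groups were taken from the labels. limma 3.58.1 (R 4.3.3) fitted 1 mean per group over all 6 arrays without a block, then eBayes. Two-sided p-values were adjusted by Benjamini-Hochberg over the 18194 genes, with a threshold of 0.05. The fit was tested on simulated data. Alternatives were a replicate block, the mean of a gene's probe sets, centring of arrays on their medians, a filter on dim genes, a trended prior, a fit of the compared groups alone, and leaving out each array.

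The members and lists were chosen with earlier results of these data known. Values in every array are given for Nfe2l2, Keap1, the 6 members with the smallest p in each comparison, the 6 with the largest mean difference between the arrays of the KDM5A groups, and Nqo1, Hmox1, Gclc, Gclm, Slc7a11, Txnrd1 and Srxn1. Further members given by array (Gstm1, Gstm2, Txn1, Sod2 and Sod3), the Kdm5a values and the count of members above 0 were added after the values were seen. From each other list, up to 2 genes with the smallest p per comparison are named.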

Additional observations from a re-analysis of the deposited data

How the results depend on the processing

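The members past the limma threshold and the genes past it stayed at 0 under all alternatives in each of the 3 comparisons. Where an array was left out, the lone array of its group was assumed to vary like the other groups. With 1 array left out the median log2 fold change of the members ran from 0.10 to 0.15 for wild-type KDM5A against empty vector, from 0.0036 to 0.28 for KDM5A-H483A against empty vector (the lowest without its second array, the highest without its first) and from -0.10 to 0.10 between the forms. The count of members above 0 then ran from 21 to 28, from 18 to 24 and from 7 to 22 in the same order, the 7 being without the second KDM5A-H483A array.

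For the named members, 373 of 407 values under the alternatives kept their direction, and 34 values in 20 results changed sign. The replicate block, the trended prior, the filter on dim genes and the fit of the compared groups alone leave every log2 fold change as it was. The mean of probe sets cannot change a gene with 1 probe set either, so part of the 373 was fixed in advance. With the mean of a gene's probe sets, Nfe2l2 had -0.016 and Gclm 0.16 for wild-type KDM5A against empty vector, Nfe2l2 -0.068 and Srxn1 0.27 for KDM5A-H483A against empty vector, and Gclm -0.14 and Srxn1 0.32 between the forms. With arrays centred on their medians, Gclm had 0.0018 and Srxn1 0.012 for wild-type KDM5A against empty vector. The cause was not tested. Leaving out 1 array at a time gave sign changes for wild-type KDM5A against empty vector in Keap1 -0.17 to 0.094, Gclm -0.47 to 0.41, Slc7a11 -0.0030 to 0.18, Gclc -0.68 to 0.069, Srxn1 -0.16 to 0.12 and Txnrd1 -0.022 to 0.71. Leaving out 1 array at a time gave sign changes for KDM5A-H483A against empty vector in Keap1 -0.071 to 0.19, Nfe2l2 -0.031 to 0.17, Gclc -0.45 to 0.28, Hmox1 -0.044 to 1.31, Gclm -0.073 to 0.29 and Txnrd1 -0.12 to 0.82. Leaving out 1 array at a time gave sign changes between the forms in Gclc -0.16 to 0.59, Gclm -0.30 to 0.57, Txnrd1 -0.47 to 0.48, Nqo1 -0.55 to 0.15, Hmox1 -1.01 to 0.34 and Srxn1 -0.15 to 0.13. Slc7a11 has no value under the filter on dim genes.

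Deviations of same-numbered arrays from their group means correlated at 0.53 between KDM5A-H483A and wild-type KDM5A and 0.31 between wild-type KDM5A and empty vector. Between KDM5A-H483A and empty vector the correlation was 0.016. Same-numbered arrays thus shared deviations in the pairs with wild-type KDM5A and hardly in the other pair. Because the labels state no pairing, the main fit took none, and its spread includes what such arrays share. With the replicate number as a block, 0 members and 0 genes passed the threshold, with smallest adjusted p-values by limma of 0.998, 0.996 and 0.795. Unadjusted p-values under 0.05 were then found for 713, 502 and 922 genes, where the fit without the block gave 459, 301 and 694, and for 4 members (Chac2, Hmox1, Mgst1 and Nqo1), 3 (Fth1, Hmox1 and Nqo1) and 2 (Cat and Chac2), in the order wild-type KDM5A over empty vector, KDM5A-H483A over empty vector and between the forms. With 2 arrays per group, confidence intervals of the members reached 0.28 to 1.36 to either side in the fit without the block.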
